A study of Schizosaccharomyces pombe with 9 samples.

Results

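Loss of php5 was compared in cells labelled as lacking both Tup corepressor genes, after 2 h of glucose starvation. The comparison sets the library labelled tup11∆/tup12∆/php5∆ (triple mutant) against the library labelled tup11∆/tup12∆ (double mutant), which are 2 of the 9 messenger RNA libraries of the study, over all 5323 features of the deposited table. The study grew fission yeast (Schizosaccharomyces pombe) of 3 strains, wild-type, double mutant and triple mutant, in glucose rich medium (yeast extract with 6% glucose), in glucose starvation medium (yeast extract with 0.1% glucose and 3% glycerol) and in nitrogen starvation medium (minimal medium without a nitrogen source, 1% glucose). Each strain was sequenced once in each medium. In the strain list of the study, tup11 and tup12 were each disrupted with ura4 in a ura4-D18 background in both mutants, and php5 was disrupted with kanMX6 in the triple mutant. The list holds 2 double mutant strains, one of them h- with ade6-M26 and leu1-32 and the other h+ with neither allele. The triple mutant without further changes, an ascospore from a cross of double mutant and php5∆ cells, was h+ with ade6-M26. The labels do not say which listed strain gave each library, nor from how many cultures, so that mating type, ade6 and leu1 may differ between the libraries along with php5. With 1 library on each side there is no replicate, no test was made and no p-value is given. Every 95% interval below is an exact Clopper-Pearson interval from the reads of both libraries, and covers counting error only.

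Php2, Php3 and Php5 form the CCAAT-binding factor, the yeast counterpart of NF-Y, a histone-fold trimer that binds the sequence CCAAT in promoters. The complex is known as an activator of genes for mitochondrial respiration. When iron is scarce, Php4 joins the trimer and turns it into a repressor of genes whose products use iron. Tup11 and Tup12 are WD-repeat corepressors that act with Ssn6 and hold down many stress and carbon source genes. Glucose starvation inactivates protein kinase A and activates the MAP kinase Sty1, and the factors Rst2 and Atf1 then switch on genes such as fbp1, which encodes fructose-1,6-bisphosphatase of gluconeogenesis.

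Promoters of 7 genes show the letters to which the results below refer. Each is a window of 300 bases, from 250 bases before to 50 bases after the first base of the RefSeq transcript, read 5′ to 3′ on the strand of the gene in the ASM294v3 assembly. For 4 genes with lower transcript levels in the triple mutant, capitals mark CCAAT, or ATTGG where the box lies on the opposite strand.
cyc1, chrIII:1714372-1714671, plus strand: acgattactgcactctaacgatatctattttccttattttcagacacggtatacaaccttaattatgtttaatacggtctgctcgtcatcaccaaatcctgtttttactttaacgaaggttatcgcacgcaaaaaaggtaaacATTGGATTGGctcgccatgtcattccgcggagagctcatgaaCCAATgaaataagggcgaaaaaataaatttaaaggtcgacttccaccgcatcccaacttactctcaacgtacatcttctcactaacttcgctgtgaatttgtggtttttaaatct
qcr2, chrIII:96377-96676, plus strand: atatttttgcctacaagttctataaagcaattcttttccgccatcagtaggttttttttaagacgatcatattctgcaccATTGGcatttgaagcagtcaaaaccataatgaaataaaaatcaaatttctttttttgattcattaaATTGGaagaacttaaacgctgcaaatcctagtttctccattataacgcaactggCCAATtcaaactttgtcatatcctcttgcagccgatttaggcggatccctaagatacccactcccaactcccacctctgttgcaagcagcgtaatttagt
coa2, chrI:3687795-3688094, plus strand: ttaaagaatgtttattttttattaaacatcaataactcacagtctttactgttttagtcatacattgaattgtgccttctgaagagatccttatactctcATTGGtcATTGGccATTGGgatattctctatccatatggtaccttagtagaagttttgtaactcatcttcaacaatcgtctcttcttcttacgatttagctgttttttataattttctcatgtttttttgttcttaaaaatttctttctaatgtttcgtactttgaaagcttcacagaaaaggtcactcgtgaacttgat
pex7, chrI:4722534-4722833, plus strand: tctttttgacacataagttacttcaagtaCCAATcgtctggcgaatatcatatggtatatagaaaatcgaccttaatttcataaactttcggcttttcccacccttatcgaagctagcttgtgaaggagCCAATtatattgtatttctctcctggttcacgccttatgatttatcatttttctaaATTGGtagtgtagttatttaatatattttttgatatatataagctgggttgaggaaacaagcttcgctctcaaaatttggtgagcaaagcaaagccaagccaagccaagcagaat
The cyc1 window holds 3 boxes that start at −107, −102 and −65 from the transcript start, the first pair on the opposite strand and in tandem. In the coa2 window, 3 evenly spaced boxes lie on the opposite strand, at −150, −143 and −136. The RefSeq transcript of coa2 begins at its start codon, so these positions are distances from the coding sequence. The qcr2 boxes start at −170, −104 and −50, and the pex7 boxes at −221, −121 and −65.

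For 3 genes with higher levels in the triple mutant, capitals mark TGACGT, the core of the cAMP-responsive element that the Atf1-Pcr1 dimer binds, or its reverse complement ACGTCA.
ctt1, chrIII:58784-59083, minus strand: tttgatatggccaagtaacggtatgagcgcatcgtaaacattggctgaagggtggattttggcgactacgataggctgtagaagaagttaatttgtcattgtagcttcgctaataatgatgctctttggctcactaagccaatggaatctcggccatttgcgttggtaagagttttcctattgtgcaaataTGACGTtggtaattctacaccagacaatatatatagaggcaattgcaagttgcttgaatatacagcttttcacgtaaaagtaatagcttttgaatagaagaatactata
gnd1, chrII:230072-230371, plus strand: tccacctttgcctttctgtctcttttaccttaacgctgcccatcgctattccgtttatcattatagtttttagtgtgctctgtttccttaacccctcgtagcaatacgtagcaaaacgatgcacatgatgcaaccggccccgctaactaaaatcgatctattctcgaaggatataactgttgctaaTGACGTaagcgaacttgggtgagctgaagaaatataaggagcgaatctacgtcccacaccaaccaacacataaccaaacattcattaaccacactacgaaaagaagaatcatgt
smp4, chrIII:954980-955279, plus strand: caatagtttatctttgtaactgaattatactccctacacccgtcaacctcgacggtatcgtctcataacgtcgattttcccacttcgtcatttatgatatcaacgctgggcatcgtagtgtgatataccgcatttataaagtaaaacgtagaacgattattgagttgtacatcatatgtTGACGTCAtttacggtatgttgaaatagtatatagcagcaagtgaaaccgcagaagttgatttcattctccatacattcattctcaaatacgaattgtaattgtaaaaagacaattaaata
CCAAT is not marked in these windows, although that of ctt1 holds both CCAAT and ATTGG. The single core of ctt1 starts at −59 and that of gnd1 at −64. In smp4 the cores at −71 and −69 lie on opposite strands and overlap, so that together they spell the palindrome TGACGTCA. These genes were chosen for display after their values had been seen, and a match describes the letters of the window, not a bound site.

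The deposited values are TPM, a share of transcripts corrected for gene length, in which each library sums to the same total, and whole reads could be recovered from them. The double mutant library held 39051438 reads and the triple mutant library 52800134, and the other 7 libraries held between 36652045 and 54303622. The gene tup11 was at 0.418 TPM in the double and 0.107 TPM in the triple mutant library, against 49.4 TPM in wild-type cells in the same medium. In contrast, tup12 had 117 TPM in the double and 54.5 TPM in the triple mutant library against 151 TPM in wild-type cells, so its disruption was not visible as a loss of reads. The php5 gene had 76.96 TPM in wild-type, 74.8 TPM in double mutant and 21.2 TPM in triple mutant cells under glucose starvation, and 8.92 and 30.2 TPM in the triple mutant in glucose rich and nitrogen starvation media. The triple mutant library thus had the lowest php5 level of the 3 strains in every medium, but php5 was not at 0, and which part of the gene the remaining reads cover cannot be seen from one value per gene. The ura4 gene had 0 TPM in wild-type and 82.6 and 36.1 TPM in the double and triple mutant libraries. Markers of both mating types were present in both mutant libraries, for example map3 of P cells at 21.4 and 9.73 TPM and mam2 of M cells at 20.9 and 7.70 TPM. Not every marker was, since the M-factor gene mfm1 had 76 reads in the double and 0 reads in the triple mutant library. With P and M markers found in each library, the mating type of neither could be read from them. The leu1 gene had 268 and 101 TPM and ade6 37.7 and 45.2 TPM, and neither was called.

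Transcript levels under glucose starvation differed widely between the triple and the double mutant, and the whole distribution was displaced. Of the 4743 features with at least 10 TPM in the higher of both libraries, 3638 (76.7%) had a lower TPM in the triple mutant, and the median log2 ratio of triple to double mutant, on TPM + 1, was −0.62. Rescaling all 9 libraries by size factors, computed as medians of ratios, moved this median to 0.029, because it raises every triple mutant value relative to the double mutant by 1.59-fold (0.67 on the log2 scale). In what follows, 2 TPM values in a row are those of the double and the triple mutant under glucose starvation, and 3 in a row are those of wild-type, double mutant and triple mutant cells. A gene was therefore called only where it differed by more than 2-fold in the same direction on both scales. On this rule 252 features were called higher in the triple mutant, 5.31% of those tested, and 697 were called lower, 14.7% of those tested. On deposited TPM alone the numbers were 252 higher and 1615 lower, so that 13.5% of the calls were higher, and on the rescaled values alone 653 higher and 697 lower, or 48.4% higher. The genes called higher took 6.23% of all TPM in the double mutant and 25.3% in the triple mutant. Those called lower took 14.8% in the double and 2.86% in the triple mutant. A change of this size in the share of a set of genes moves the TPM of all others, and 1 library on each side cannot tell a general decrease from such a displacement.

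**Figure D1:**
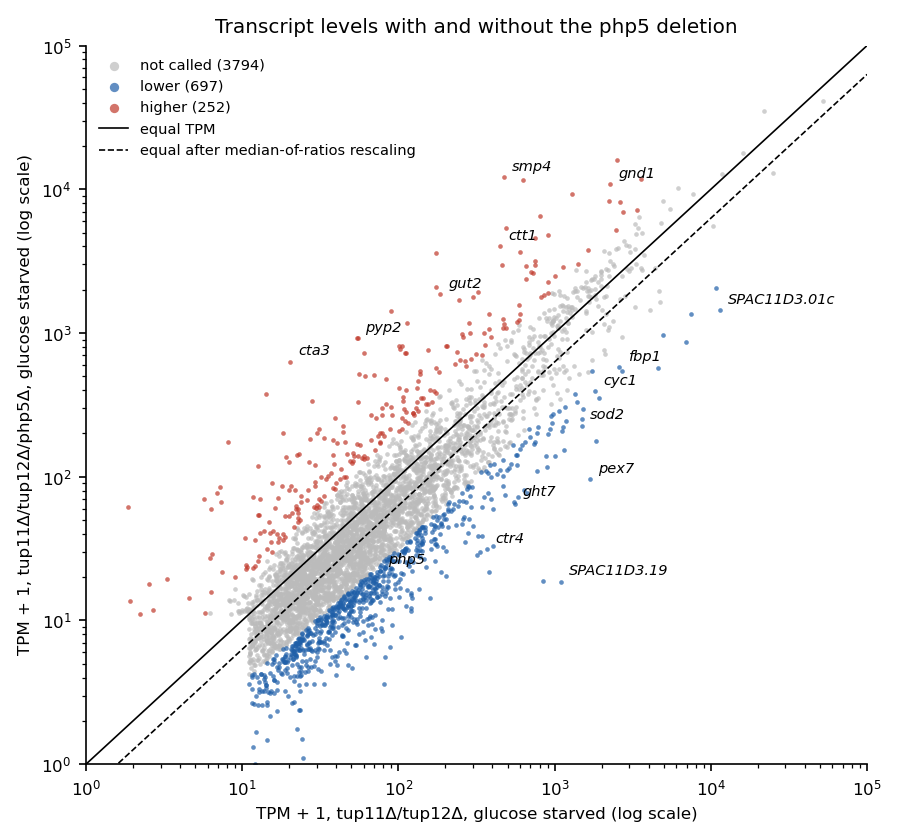
TPM + 1 of each tested feature in the double mutant (horizontal axis, log scale) and triple mutant library (vertical axis, log scale) under glucose starvation, 1 point per feature. The 252 features called higher lie above the line of equal TPM, and the 697 called lower lie below both that line and the dashed line of equal level after rescaling.

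Ratios also followed gene length and abundance. In the shortest of 5 length classes (75 to 594 bases) 22.6% of the tested features were called lower, and in the longest (1881 to 8100 bases) 4.01% were, while the share called higher was 6.40% and 5.70%. Genes called lower had a median length of 816 bases and genes called higher of 1242 bases, against 1122 bases for all tested features. By mean TPM of both libraries, 1.90% of the lowest class and 13.3% of the highest class were called higher, and 20.7% and 10.7% were called lower. The part of length in the results below was not tested. Among the lists described next, the median length was 685.5 bases for complex II, 529.5 bases for complex III, 327 bases for complex IV, 504 bases for the ATP synthase and 505.5 bases for mitochondrial ribosomal proteins. It was 1330.5 bases for the citric acid cycle, 1108.5 bases for mating and 396 bases for histones, and 1695 bases for iron uptake, 1743 bases for disaccharides and 1320 bases for glycolysis.

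Among the subunits of the CCAAT-binding factor and its partners, php5 was the member called lower. Its level was 3.53-fold lower (95% interval 3.34 to 3.73) in the triple mutant on deposited TPM and 2.22-fold lower after rescaling. The other core subunits kept their reads, php2 at 111 and 141 TPM and php3 at 238 and 314 TPM in the double and triple mutant, neither of them called. The iron-dependent subunit gene php4 was called higher, at 59.2 and 131 TPM (2.22-fold, 95% interval 2.12 to 2.32). It was also called higher in glucose rich medium (38.5 and 88.4 TPM) and under nitrogen starvation (39.00 and 149.8 TPM). The corepressor partner ssn6 was called higher under glucose starvation, at 28.4 and 84.7 TPM (2.98-fold, 95% interval 2.88 to 3.07), with 24.6 and 24.7 TPM in glucose rich medium and 36.3 and 37.3 TPM under nitrogen starvation.

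Genes of the nuclear-encoded respiratory chain were lower in the triple mutant as a group. All 35 listed genes of complexes II, III (with cytochrome c) and IV and of the ATP synthase passed the minimum level, all 35 had a lower TPM in the triple mutant, 33 of 35 remained below 1 after rescaling, 19 (54.3%, against 14.7% of all tested features) were called lower and none was called higher. Together they held 3.26% of all TPM in the double mutant, 1.05% in the triple mutant and 3.93% in wild-type cells under glucose starvation. On deposited TPM the triple mutant had the lowest value of the 3 strains for all 35 genes in this medium, and for 33 of 35 in each of the other media. The size factors under glucose starvation were 1.21 for the wild-type, 0.967 for the double and 0.609 for the triple mutant library. Rescaling therefore raises the triple mutant values against both, and sdh2 and sdh3 were then above the double mutant (log2 0.092 and 0.15). Most of these genes are short, and 22.6% and 22.4% of all tested features in the shortest classes of length were called lower.

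Complex IV, the cytochrome c oxidase that passes electrons to oxygen, had a median log2 of −2.11 (−1.44 after rescaling, against −0.62 and 0.029 over all features), with 7 of 8 subunit genes called lower. Of all lists only the 3 markers of P cells had a lower median (−2.20, rescaled −1.59). The gene cox12 had 1155 TPM in the double and 152 TPM in the triple mutant (7.59-fold lower, 95% interval 7.28 to 7.91). Wild-type cells in this medium had 1275 TPM. The least abundant subunit, cox8, had 400.4 and 58.7 TPM, but a protein-coding gene overlaps 99.5% of its coding length and the reads carry no strand. In contrast, cox13, the only subunit not called, had 1194 and 401 TPM (2.98-fold lower on TPM and 1.87-fold after rescaling). The assembly factor gene coa2, whose promoter with its 3 tandem boxes is printed above, had 158 and 13.3 TPM (11.8-fold lower, 95% interval 10.3 to 13.6). Thus a gene needed to build complex IV was lower by more than any of its subunits.

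In complex III, the cytochrome bc1 complex, and its electron carrier, 6 of 10 genes were called lower (median log2 −1.88, rescaled −1.22). The gene cyc1 for cytochrome c had 2690.0 TPM in wild-type, 1812 TPM in double mutant and 394 TPM in triple mutant cells (4.61-fold lower than in the double mutant, 95% interval 4.50 to 4.72). In glucose rich medium cyc1 had 848 and 46.1 TPM in the double and triple mutant and under nitrogen starvation 2176 and 250.4 TPM, so it was called lower in every medium. The core subunit gene qcr2 had 374 and 105 TPM (3.57-fold lower, 95% interval 3.49 to 3.66), and qcr10 had 1177 and 243 TPM. The most abundant member, qcr8, was not called, at 2708 and 944 TPM, and neither were rip1, qcr1 and qcr7.

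The ATP synthase had 5 of 13 genes called lower (median log2 −1.30, rescaled −0.64). The called genes encode small subunits, among them atp18 at 897 and 116 TPM (7.75-fold lower, 95% interval 7.32 to 8.21), atp7 at 445 and 109.7 TPM and atp15 at 1072 and 286 TPM. The catalytic core genes atp1 and atp2 were at 821 and 513 TPM and at 1151 and 535 TPM and were not called. Complex II, succinate dehydrogenase, had 1 of 4 genes called, the membrane anchor gene tim18 (also named sdh4) at 582 and 71.5 TPM (8.15-fold lower, 95% interval 7.79 to 8.52), while sdh1, sdh2 and sdh3 differed by less than the rule requires. The internal NADH dehydrogenase gene ndi1, which in fission yeast stands in for complex I, had 468 and 130.1 TPM (3.60-fold lower, 95% interval 3.53 to 3.67). Within these complexes the call therefore did not extend to every subunit. No mitochondrially encoded gene was among the rows analysed here.

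**Figure D2:**
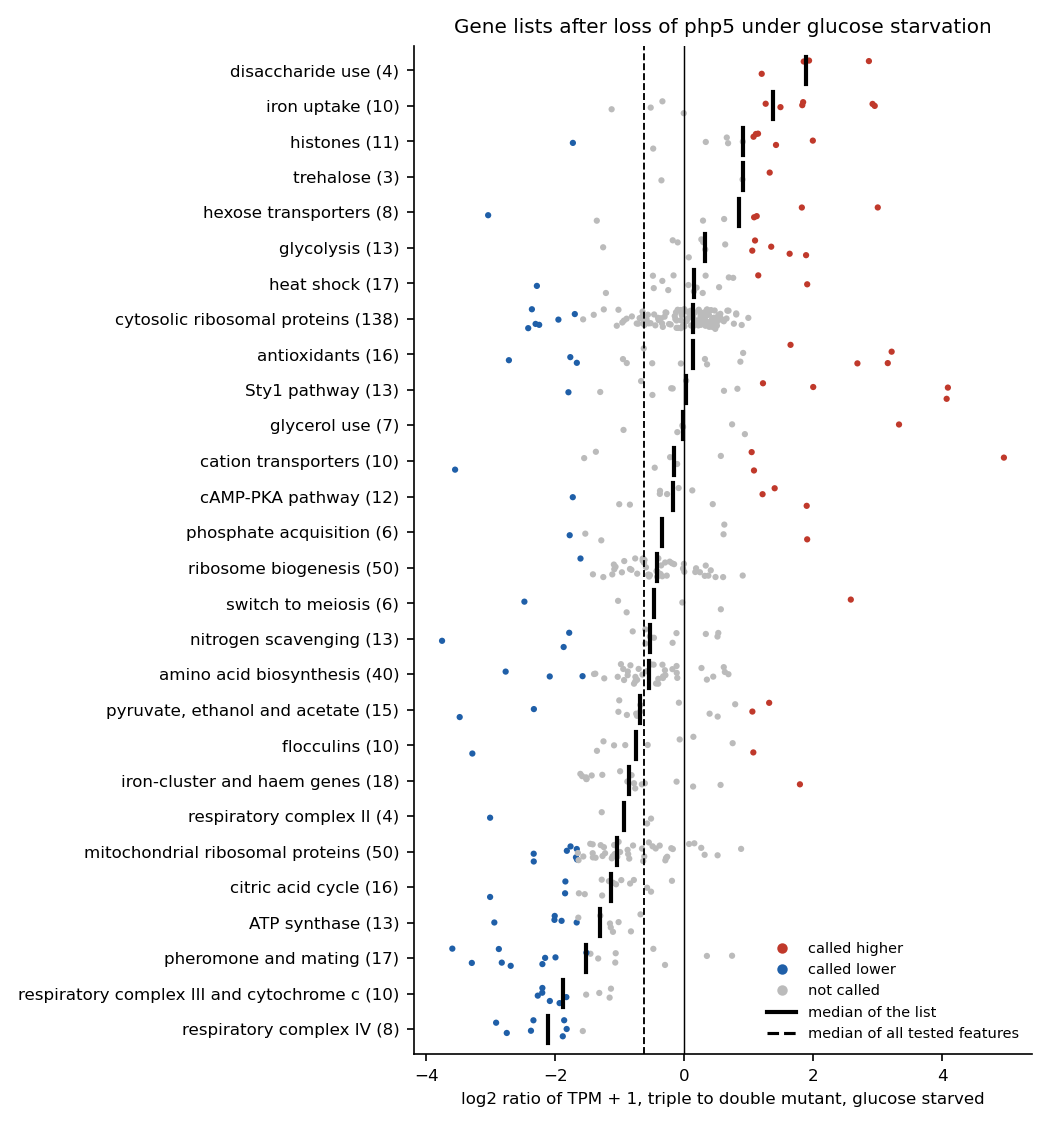
Log2 ratio of TPM + 1 of the triple to the double mutant under glucose starvation (horizontal axis) for each tested member of 28 gene lists (vertical axis, number tested in brackets), with list medians as bars and the median of all features (−0.62) as a dashed line. Of the lists shown, complex IV has the lowest median (−2.11), and the disaccharide list the highest (1.89).

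Enzymes of the citric acid cycle, which feeds the respiratory chain, had 3 of 16 genes called lower (18.8%, near the 14.7% of all tested features) and none higher (median log2 −1.13, rescaled −0.47). The called members were both subunits of NAD-dependent isocitrate dehydrogenase, idh1 at 974 and 271 TPM (3.59-fold lower, 95% interval 3.54 to 3.65) and idh2 at 947 and 263 TPM, together with tim18, which is also counted in complex II. The most abundant genes were not called, mdh1 for malate dehydrogenase at 3251 and 1515 TPM and cit1 for citrate synthase at 2087 and 716 TPM. The gene aco1 for aconitase, an iron-sulphur enzyme, was nearest to equal TPM, at 735 and 645 TPM. Of 50 genes for mitochondrial ribosomal proteins 7 were called lower (14.0%, no more than the share of all tested features) and none higher, with a median log2 of −1.05 (rescaled −0.39) and mrpl39 at 171 and 33.1 TPM as an example. The mitochondrial superoxide dismutase gene sod2 had 1489 and 225 TPM (6.60-fold lower, 95% interval 6.46 to 6.75), and mcp60 for the mitochondrial chaperonin had 375 and 76.3 TPM (4.92-fold lower). Both were called lower. Other genes for chaperones of the mitochondrial matrix, chosen after their values were seen, were not called, hsp10 for the partner of mcp60 at 862 and 957 TPM and ssc1 for an Hsp70 at 564 and 407 TPM.

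Genes for iron uptake went the other way. Of 10 tested genes 6 were called higher (60%, against 5.31% of all tested features) and none lower (median log2 1.38, rescaled 2.05), and the list held 0.155% of all TPM in the double and 0.429% in the triple mutant. The siderophore transporter gene str1 had 104 and 817 TPM (7.82-fold higher, 95% interval 7.66 to 7.98) and the ferric reductase gene frp1 102 and 778 TPM (7.64-fold higher, 95% interval 7.47 to 7.80). The ferroxidase gene fio1 and its partner permease gene fip1, which are neighbours, had 71.1 and 256 TPM and 380.4 and 1073 TPM. The haem transporter gene str3 and the siderophore synthesis gene sib2 were also called higher, whereas shu1, another haem uptake gene, was not called at 249 and 114 TPM. The GATA-type repressor gene of iron uptake, fep1, had 15.4 and 15.4 TPM. Of 18 genes for iron-sulphur clusters, iron-using enzymes and haem synthesis, which include known Php4 targets, 1 was called higher and none lower (median log2 −0.85, rescaled −0.19). The share called higher, 5.56%, was near the 5.31% of all tested features. The called gene was hem1 for 5-aminolevulinate synthase, the first enzyme of haem synthesis, at 132 and 461 TPM (3.49-fold higher, 95% interval 3.42 to 3.56). The later haem synthesis genes hem3 and hem15 were at 163 and 56.3 TPM and at 67.5 and 24.4 TPM.

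All 4 genes for the use of disaccharides were called higher, against 5.31% of all tested features (median log2 1.89, rescaled 2.56). The alpha-glucosidase genes agl1 and mal1 had 726 and 2625 TPM (3.62-fold, 95% interval 3.59 to 3.64) and 68.9 and 508 TPM (7.37-fold, 95% interval 7.18 to 7.57), with 781 and 144 TPM in wild-type cells in the same medium. The invertase gene inv1 had 1642 and 3779 TPM and the sugar transporter gene sut1 82.6 and 319 TPM. Among 8 hexose transporter genes 4 were called higher (50%) and 1 lower (12.5%, against 14.7% of all tested features), so the family was split. The gene ght2 had 99.8 and 806 TPM (8.08-fold higher, 95% interval 7.90 to 8.26), ght6 379 and 1345 TPM, and ght5, which encodes the main high-affinity glucose transporter, 1418 and 3009 TPM (2.12-fold higher). On the opposite side ght7 had 548 and 65.8 TPM (8.33-fold lower, 95% interval 8.12 to 8.55), and ght3, a gluconate transporter gene, was not called at 1238 and 483 TPM.

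Glycolysis genes took 3.03% of all TPM in the double and 4.90% in the triple mutant (median log2 0.33, rescaled 0.99). Of these genes 5 of 13 were called higher (38.5%, against 5.31% of all tested features) and none lower. The gene pgk1 for phosphoglycerate kinase had 2235 and 8287 TPM (3.71-fold higher, 95% interval 3.69 to 3.73), pfk1 for phosphofructokinase 237 and 739.6 TPM, and fba1 for aldolase 2718 and 6926 TPM. The hexokinase genes differed, hxk2 being called higher at 592 and 1232 TPM and hxk1 not called at 485 and 202 TPM. Outside the lists, gcd1, annotated by RefSeq as a glucose-6-phosphate 1-dehydrogenase, was among the 15 largest increases, at 174 and 2100.2 TPM (12.1-fold, 95% interval 11.9 to 12.3). Further genes of the oxidative pentose phosphate pathway were looked up after the values had been seen. The phosphogluconate dehydrogenase gene gnd1 was called higher, at 2271 and 10822 TPM (4.76-fold, 95% interval 4.74 to 4.79), whereas the other genes with the annotation of gcd1 were not called, zwf1 at 381 and 518 TPM and SPAC3C7.13c at 614 and 562 TPM. In wild-type cells under glucose starvation gcd1 had 1132 TPM and gnd1 9867 TPM, so that for these 2 genes the double mutant had the lowest level of the 3 strains.

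The glycerol list, relevant because the starvation medium offered glycerol, had 1 of 7 genes called (14.3% higher, against 5.31% of all tested features). This was gut2 for the mitochondrial glycerol-3-phosphate dehydrogenase, at 182 TPM in wild-type, 184 TPM in double mutant and 1861 TPM in triple mutant cells (10.1-fold higher than in the double mutant, 95% interval 9.96 to 10.3). It was not called in glucose rich medium (226 and 158 TPM) or under nitrogen starvation (401 and 235 TPM). Among 15 tested genes of pyruvate, ethanol and acetate metabolism 2 were called higher and 2 lower, each 13.3% of them, against 5.31% and 14.7% of all tested features. Those higher were mae2 for malic enzyme, at 909.6 and 2269 TPM, and atd1 for aldehyde dehydrogenase, at 911 and 1898 TPM. Those lower were ach1 for acetyl-CoA hydrolase, at 332 and 28.9 TPM (11.5-fold, 95% interval 11.1 to 11.96), and the pyruvate decarboxylase gene pdc202, at 72.2 and 13.6 TPM. The pyruvate dehydrogenase genes pda1, pdb1 and lat1 were not called.

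In the Sty1 stress pathway 4 of 13 genes were called higher (30.8%) and 1 lower (7.69%), against 5.31% and 14.7% of all tested features. The kinase and its main target factor were not called, sty1 at 158 and 161 TPM and atf1 at 120.4 and 185 TPM. The gene pyp2, whose phosphatase inactivates Sty1 and which Atf1 induces, had 13.1 TPM in wild-type, 53.4 TPM in double mutant and 924 TPM in triple mutant cells (17.3-fold higher than in the double mutant, 95% interval 16.9 to 17.8). The bZIP factor gene atf21 had 8.94, 54.3 and 928 TPM (17.1-fold higher, 95% interval 16.5 to 17.7). The stress kinase gene srk1, at 203 and 814 TPM, and pcr1, which encodes the partner of Atf1, at 59.00 and 139 TPM, were also called higher. In the protein kinase A pathway 3 of 12 genes were called higher (25%, against 5.31%) and 1 lower (8.33%, against 14.7%). The regulatory subunit gene cgs1 had 15.1 and 59.2 TPM (3.91-fold higher, 95% interval 3.65 to 4.19) and the catalytic subunit gene pka1 129 and 299.9 TPM. The zinc-finger repressor gene scr1 was called higher, at 24.99 and 67.7 TPM, and the activator gene rst2 was not called, at 173 and 133 TPM.

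Of 16 genes for enzymes against oxidants 4 were called higher (25%, against 5.31% of all tested features) and 9 not called. The 3 called lower (18.8%) were near the share of all tested features (14.7%). The catalase gene ctt1 had 228 TPM in wild-type, 448 TPM in double mutant and 4000.2 TPM in triple mutant cells (8.93-fold higher than in the double mutant, 95% interval 8.84 to 9.03). The sulfiredoxin gene srx1 had 54.6 and 516 TPM (9.45-fold higher, 95% interval 8.88 to 10.1), the peroxiredoxin gene tpx1 2614 and 8199.9 TPM, and the cytosolic superoxide dismutase gene sod1 459.8 and 2964 TPM (6.45-fold higher, 95% interval 6.32 to 6.57). Those called lower were sod2, given above, trx2 for a mitochondrial thioredoxin, at 132 and 38.1 TPM, and gst1 for a glutathione S-transferase, at 20.1 and 5.64 TPM. Among 17 heat shock genes 2 were called higher (11.8%) and 1, mcp60, lower (5.88%), against 5.31% and 14.7% of all tested features. The higher ones were ssa1 for an Hsp70, at 706 and 2649 TPM, and hsp104 for a disaggregase, at 109 and 242 TPM. The most abundant of all, hsp9, was not called, at 52046 and 41156 TPM, and neither was hsp16, at 21807 and 35232 TPM. For trehalose, the trehalase gene ntp1 was called higher, at 159 and 399.7 TPM, and the synthesis genes tps1 and tpp1 were not.

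Histone genes had 5 of 11 members called higher (45.5%) and 1 lower (9.09%), against 5.31% and 14.7% of all tested features. They held 1.17% of all TPM in the double and 2.22% in the triple mutant (median log2 0.91, rescaled 1.58). The gene htb1 for histone H2B had 750.2 and 2993 TPM (3.99-fold higher, 95% interval 3.92 to 4.06), and hta1, hht1, hht2 and hhf3 were called with it. The member called lower was cnp1 for the centromeric histone H3 variant, at 30.7 and 8.59 TPM. The 138 genes for cytosolic ribosomal proteins had 6 called lower (4.35%, against 14.7% of all tested features) and none higher, and their share of all TPM was 17.1% in the double and 17.8% in the triple mutant (median log2 0.14, rescaled 0.81). Of 50 tested ribosome biogenesis genes 1 was called lower and none higher, and of 40 amino acid biosynthesis genes 3 were called lower (7.5%) and none higher, among them arg3 at 62.8 and 8.37 TPM.

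Genes for pheromone signalling and mating had 9 of 17 tested members called lower (52.9%, against 14.7% of all tested features) and none higher (median log2 −1.52, rescaled −0.95). The G protein gene gpa1 of the pheromone pathway had 481 and 73.7 TPM (6.53-fold lower, 95% interval 6.35 to 6.71), and ste4 138 and 33.9 TPM. The MAP kinase gene spk1 had 136 and 29.7 TPM, and a protein-coding gene overlaps all of its coding length. The P-factor gene map2 had 89.7 and 8.26 TPM (10.9-fold lower, 95% interval 9.69 to 12.2), and the M-factor gene mfm1 had 11.1 TPM in the double mutant and 0 reads in the triple mutant. Against a floor of 3 reads in the triple mutant library, mfm1 was at least 31.3-fold lower there. Since markers of P and M cells were lower alike, and since the labels give no mating type, the part of mating type in these values cannot be told apart. The master regulator gene ste11 had 33.8 and 33.1 TPM and was not called. Nitrogen scavenging genes had 3 of 13 called lower (23.1%, against 14.7% of all tested features), isp4 for an oligopeptide transporter at 103 and 6.69 TPM, isp5 and fnx1.

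Transport of cations and phosphate gave the most extreme increase and one of the deepest decreases. Of 10 cation transporter genes 3 were called higher (30%) and 1 lower (10%), against 5.31% and 14.7% of all tested features. The gene cta3 for a P-type cation ATPase had 12.3 TPM in wild-type, 19.4 TPM in double mutant and 632 TPM in triple mutant cells (32.6-fold higher than in the double mutant, 95% interval 31.5 to 33.8), the largest ratio among called genes with at least 100 TPM. In glucose rich medium cta3 was lower in the triple mutant, at 54.5 and 21.6 TPM, and under nitrogen starvation it was not called, at 286 and 475 TPM. The copper transporter gene ctr4 had 431, 369 and 30.5 TPM (12.1-fold lower than in the double mutant, 95% interval 11.5 to 12.7), and its partner gene ctr5 was not called at 373 and 144 TPM. The acid phosphatase gene pho1 was called higher, at 36.96 and 141 TPM, and the glycerophosphodiester transporter gene tgp1 lower, at 24.04 and 6.32 TPM. Each was 1 of 6 phosphate acquisition genes (16.7%). Among 10 tested flocculation genes pfl7 was called lower, at 22.1 and 1.37 TPM, and cbf12 higher, at 29.1 and 62.3 TPM (10% each). In the list for the switch to meiosis, with 6 tested genes, rsv2 was called higher (53.9 and 328 TPM) and mug14 lower. Each is 16.7% of the list, against 5.31% and 14.7% of all tested features. The paper groups mug14 with fbp1 as a glucose starvation gene, so its place in the list does not make it a regulator of meiosis.

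After cta3, the largest increases among genes with at least 100 TPM were those of cmt2, which encodes catechol O-methyltransferase, at 13.2 and 376 TPM (28.5-fold, 95% interval 26.3 to 30.98), and smp4, at 471 and 12148 TPM (25.8-fold, 95% interval 25.1 to 26.5). They were followed by tna1 for a nicotinic acid transporter (7.10 and 173 TPM), SPACUNK4.17 for a predicted dehydrogenase (174 and 3586 TPM) and rtc3 for an SBDS family protein (629 and 11615 TPM, 18.5-fold). In wild-type cells in the same medium smp4 had 807 TPM and rtc3 458 TPM, so the triple mutant was the highest of the 3 strains for both. Next in order came pyp2, atf21, ssd2 for succinate-semialdehyde dehydrogenase (88.9 and 1429.7 TPM), the sulfate transporter gene sul1 (26.97 and 337 TPM), mug24 for an RNA-binding protein (59.5 and 728 TPM) and gcd1. The list of 15 ended with rds1 (484 and 5401 TPM), the transcription factor gene SPCC320.03 (17.3 and 200.4 TPM) and erg1 for squalene monooxygenase of ergosterol synthesis (112 and 1164 TPM, 10.4-fold). No gene of the respiratory lists was among these 15.

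The largest decrease was that of SPAC11D3.19, an uncharacterised gene of 234 bases with 189.7 TPM in wild-type, 1092 TPM in double mutant and 17.6 TPM in triple mutant cells (61.95-fold lower than in the double mutant, 95% interval 54.9 to 70.1). The uncharacterised SPAPB1A11.06 followed, at 68.5, 845 and 17.8 TPM. The spore coat gene isp3 had 14.9 TPM in wild-type, 382 TPM in double mutant and 20.6 TPM in triple mutant cells (18.5-fold lower, 95% interval 17.2 to 19.98). For these genes the double mutant stood above both other strains, and on deposited TPM the triple mutant value was near or below that of wild-type cells. By contrast pex7, which encodes the receptor for import of proteins into peroxisomes, had 1068, 1687 and 95.8 TPM (17.6-fold lower than in the double mutant, 95% interval 17.2 to 18.1), and the triple mutant had by far the lowest level of the 3 strains. Further genes of the list were eca39 for the branched-chain amino acid aminotransferase (1838 and 177 TPM), car1 for arginase (119 and 11.2 TPM), the aldo/keto reductase gene SPBC8E4.04 (399 and 32.1 TPM), zrg17 for a zinc transporter of the Golgi (111 and 11.7 TPM), min8, and the uncharacterised SPAC23D3.17 and SPAC222.17. The reads carry no strand, and 26 of the 30 genes named for their size are overlapped in part by another annotated gene, 13 of them over their whole coding length and 2 by a protein-coding gene, so that reads of overlapping genes cannot be told apart. The same holds for called members of the gene lists, of which 7 of 121 are overlapped over more than 50% of their coding length by a protein-coding gene, namely mrp20, atf31, spk1, cox8, qcr9, rps1401 and rpl4101.

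The study centres on fbp1 and selected genes with a like pattern by a rule on TPM. Its criteria were applied here to the deposited values, namely in wild-type cells at most 100 TPM in glucose rich medium and at least 100 TPM under glucose starvation with a ratio over 2, and under nitrogen starvation a double mutant level over 2-fold that of both wild-type and triple mutant cells. They were met by 17 genes, which make up the list described next. Under glucose starvation fbp1 had 597 TPM in wild-type, 2598 TPM in double mutant and 579 TPM in triple mutant cells (4.49-fold lower than in the double mutant, 95% interval 4.44 to 4.54). The triple mutant value of fbp1 was thus close to that of wild-type cells on deposited TPM only. The size factors were 1.21 for the wild-type and 0.609 for the triple mutant library, so rescaling puts the triple mutant above wild-type. The paper also reports that php5∆ cells accumulate a longer fbp1 transcript under glucose starvation, which one value per gene cannot separate from the mRNA. In glucose rich medium the fbp1 levels in these strains were 5.11, 6.68 and 11.1 TPM. The gene mug14 had 5893, 7504 and 1347 TPM under glucose starvation (5.57-fold lower than in the double mutant, 95% interval 5.52 to 5.62). Of the 17 genes 9 were called lower (52.9%, against 14.7% of all tested features) and 1, mal1, higher (5.88%, against 5.31%). Their median log2 was −1.78 (rescaled −1.14). Under nitrogen starvation 14 of the 17 were called lower, which the choice of the list on that comparison fixes. The genes gld1, pdc201, ght1 and SPAC977.17 were not called under glucose starvation, at 432 and 831, 415 and 719, 160.4 and 247, and 243 and 240.5 TPM.

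**Figure D3:**
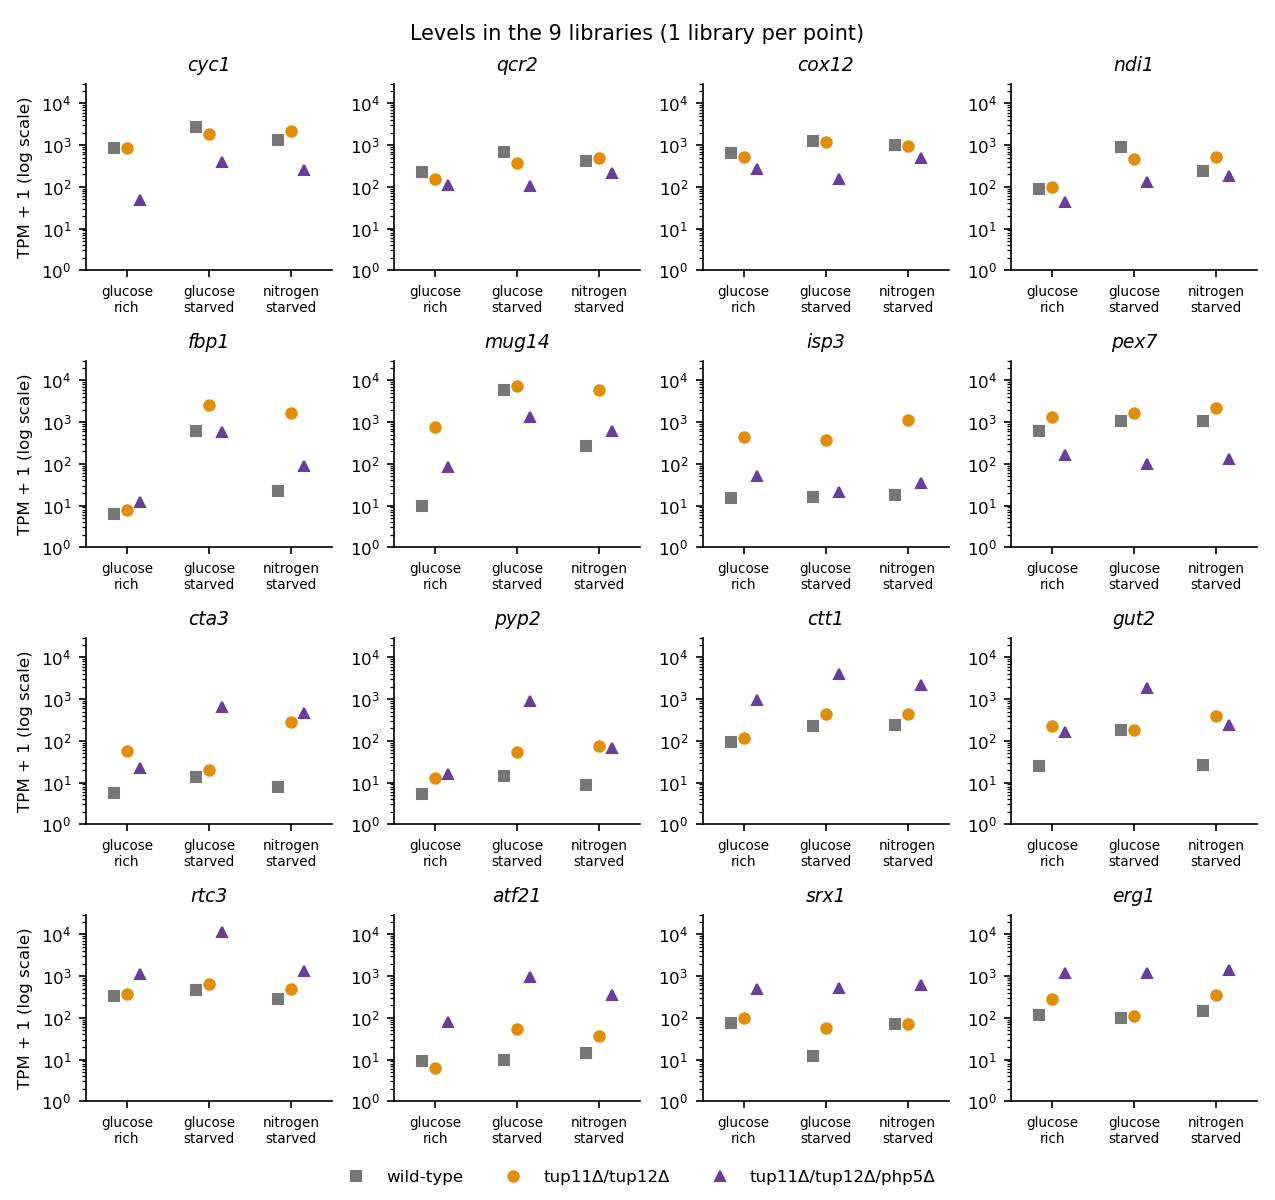
TPM + 1 (vertical axes, log scale) of 16 genes in the 9 libraries, by medium (horizontal axes) and strain, with 1 library per point and no error bars because there are no replicates. In the upper row the triple mutant is the lowest strain in every medium, and under glucose starvation it is the highest strain for the 8 genes of the lower rows.

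The same deletion was compared in the other media, where both libraries are different ones. In glucose rich medium 149 features were called higher (3.15% of 4737 tested) and 69 lower (1.46%), and under nitrogen starvation 151 were called higher (3.09% of 4894) and 115 lower (2.35%). Glucose starvation therefore had the most calls of the 3 media, with the displacement described above. Of the 252 genes called higher here, 67 were also called higher in glucose rich medium, which is 26.6% of the first and 45.0% of the second list, and 60 under nitrogen starvation (23.8% and 39.7%). Of the 697 genes called lower, 36 were also lower in glucose rich medium (5.16% and 52.2%) and 69 under nitrogen starvation (9.90% and 60.0%). Calls of the other media were thus found again under glucose starvation more often than the 5.31% (higher) and 14.7% (lower) of all tested features called there. Under glucose starvation alone 162 of the higher (64.3%) and 612 of the lower genes (87.8%) were called. With only 69 and 115 features called lower in the other media, most of the 697 could not be shared. The share called here alone is therefore no measure of a response particular to glucose starvation. Across genes, the log2 ratios under glucose starvation had a Pearson r of 0.336 with those in glucose rich medium (4630 genes) and of 0.487 with those under nitrogen starvation (4719 genes), as a description over genes, which are not independent replicates.

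Genes called in every medium numbered 37 higher and 20 lower. The higher set included ctt1, srx1, atf21, rtc3, cmt2, tna1, ssd2, sul1, sul2, sib2, ght2, ght6, php4 and the ergosterol genes erg1, erg25 and erg31. For erg1 the levels in the double and triple mutant were 285 and 1158 TPM in glucose rich medium, 112 and 1164 TPM under glucose starvation and 355 and 1427 TPM under nitrogen starvation. For srx1 they were 97.3 and 490.4, 54.6 and 516, and 69.5 and 599 TPM, so that the triple mutant level varied little between media on deposited TPM. The size factors of these triple mutant libraries were 0.973, 0.609 and 1.14, so after rescaling the srx1 level was highest under glucose starvation. The lower set comprised php5 itself, cyc1, ndi1, coa2, mix17 and ups2 of mitochondria, pex7, isp3, mug14, ght7, psk1, the phosphate transporter gene SPBC1703.13c, and pfl7, ste7, btb1, but1, mfs1, cyc2, SPAC323.07c and SPAC11D3.19. The pex7 levels were 1325 and 162 TPM in glucose rich medium and 2143 and 132 TPM under nitrogen starvation. For psk1, which encodes an S6 kinase, they were 143 and 52.4 TPM, 159.8 and 30.4 TPM under glucose starvation and 245 and 57.2 TPM under nitrogen starvation. The respiratory lists were lower in all media, except that complex II was near 0 in glucose rich medium (median log2 −0.020). Fewer of their genes were called lower than under glucose starvation, but so were fewer of all tested features. Those shares were 1.46% in glucose rich medium and 2.35% under nitrogen starvation, against 14.7% under glucose starvation. Of 10 genes of complex III and cytochrome c, 3 were called lower in glucose rich medium and 4 under nitrogen starvation. Of 8 genes of complex IV, none and 3 were.

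**Figure D4:**
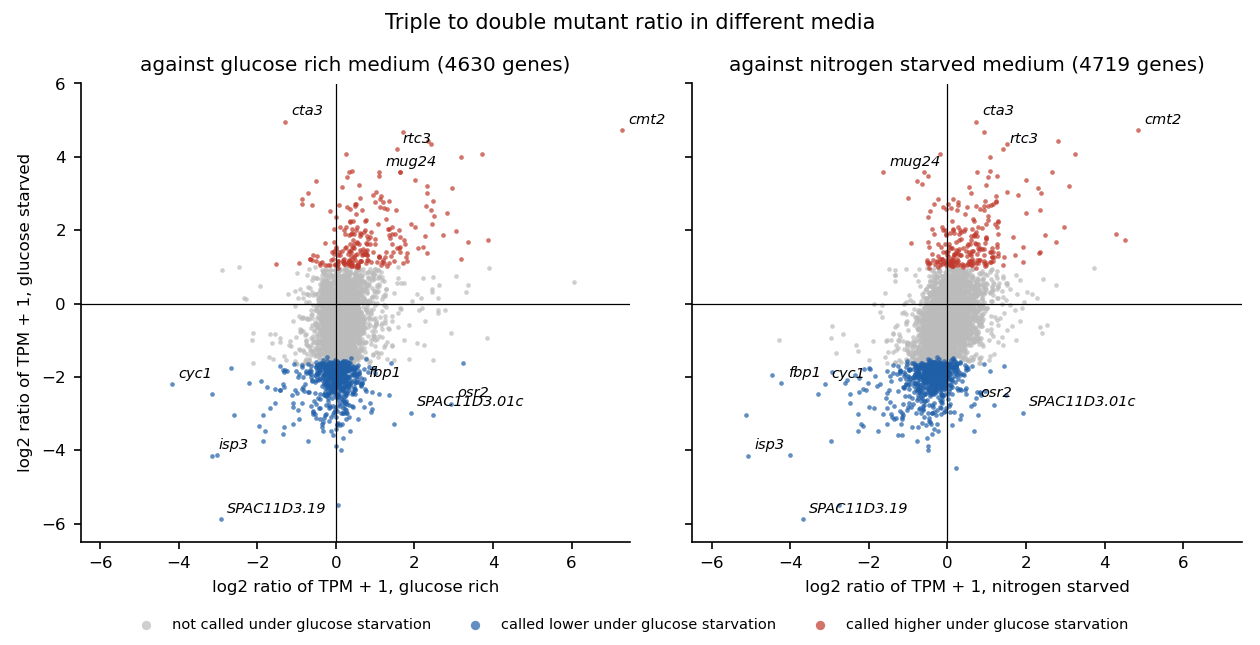
Log2 ratio of the triple to the double mutant under glucose starvation (vertical axis) against the same ratio in glucose rich medium (left) and under nitrogen starvation (right), on TPM + 1, 1 point per gene tested in both (4630 and 4719 genes). Most genes called lower under glucose starvation lie near 0 on the horizontal axes, while cyc1 and isp3 are low in every medium and cta3 and osr2 change side between glucose starvation and glucose rich medium.

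The CCAAT box was common in promoters of all classes. Counting CCAAT on either strand in windows like those printed above, 1993 of 4726 tested genes (42.2%) held a box, as did 43.1% of the genes called higher and 330 of 694 genes called lower (47.6%, 95% interval 43.8% to 51.3%). Genes called lower were thus 16.6% of the genes with 1 box, 16.5% of those with more and 13.3% of those with none. Of the 20 genes called lower in every medium 18 held a box (90%, 95% interval 68.3% to 98.8%), and 23 of the 35 respiratory chain and ATP synthase genes did (65.7%, 95% interval 47.8% to 80.9%). The longer form CCAATCA was in 2.37% of all promoters, in 3.31% of those called lower, in 6.05% of those called higher and in 7 of the 20 called lower in every medium (35%). In these 20 promoters the boxes had a median start of −112 from the transcript start, with the middle of the values between −145 and −76, against −101 and −181 to −27 for all tested genes. The 8 promoters of complex IV subunits held a box in 4 cases, although 7 of these genes were called lower.

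The core TGACGT was searched after the values had been seen. It was in 286 of 4726 promoters (6.05%), in 54 of 248 promoters of genes called higher (21.8%, 95% interval 16.8% to 27.4%) and in 25 of 694 called lower. Genes with the core included ctt1, gnd1 and smp4, whose windows are printed above, and rds1, while those of cta3, pyp2, atf21 and rtc3 held none of these letters. Of 12 promoters in the protein kinase A list 5 held the core, and of 11 histone promoters 4. The class of genes called higher in every medium had the core in 5 of 36 promoters (13.9%).

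**Figure D5:**
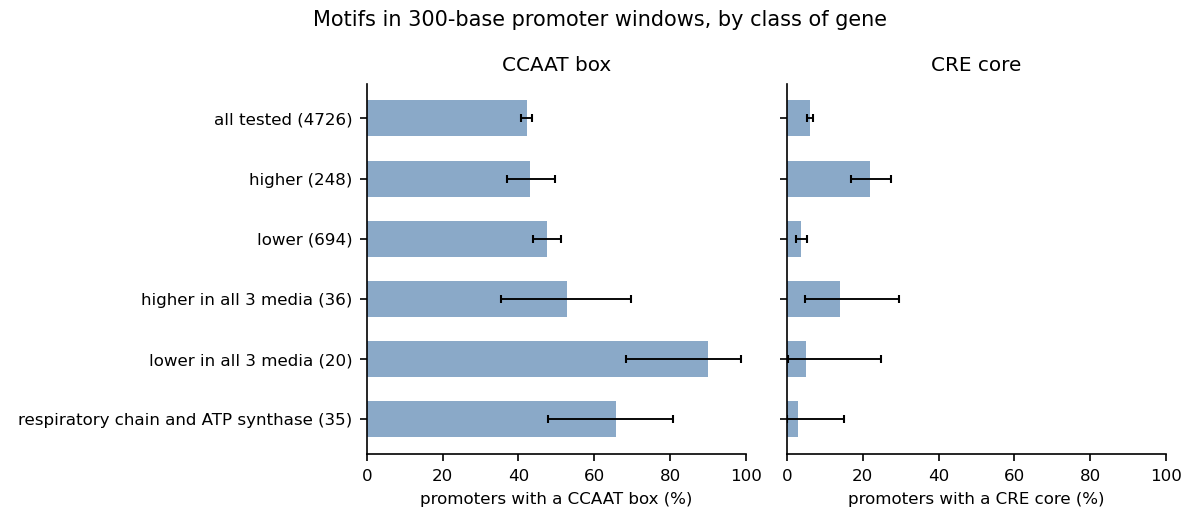
Share of promoter windows (horizontal axes, percent) that hold a CCAAT box (left) or the core of the cAMP-responsive element (right), by class of gene (number of windows in brackets), with exact 95% binomial intervals. CCAAT is in 42.2% of all and 90% of the promoters of genes lower in every medium, and the other core is in 21.8% of the promoters of genes called higher against 6.05% of all.

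Called genes lay on every chromosome, with 14.7%, 14.6% and 15.02% of the tested features of chromosomes I, II and III called lower and 5.01%, 4.89% and 6.92% called higher. Within 100 kb of the chromosome ends 17 of 112 features (15.2%) were called higher, against 5.07% elsewhere, and 14.3% were called lower, against 14.7%. Some called genes were neighbours in the table. Runs of at least 3 neighbours with one direction numbered 10 for higher genes, with 31 genes in all, and 23 for lower genes, with 74 genes in all. The higher runs included mal1, ght4 and frp1, the run hsp3105, fip1 and fio1, and the run SPACUNK4.17, mug153, tps3 and SPACUNK4.15. Near the left end of chromosome I, SPAC11D3.19, SPAC11D3.01c and SPAC11D3.02c formed a lower run, in which SPAC11D3.01c had 113 TPM in wild-type, 11364 TPM in double mutant and 1442 TPM in triple mutant cells. The run cyc1, lto1 and gst1 joined the cytochrome c gene to a glutathione S-transferase gene.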

How the data were processed

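Messenger RNA of 9 libraries (3 strains in 3 media, 1 library each) had been sequenced without strand information. Per the paper's methods and the submitters' processing notes, the authors trimmed reads with fastp, mapped them with HISAT2 to the ASM294v2 genome, counted them with featureCounts and deposited TPM per gene. Tool versions are not given in the sources used here. The other deposited column, gene length, is a unit other than expression.

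TPM times length came in whole steps of 1 read in all 9 libraries (100% of values, tolerance 0.01 reads), which gave the reads behind each value. Deposited TPM were compared as they stood and after division by size factors, the medians of ratios to the geometric mean of all 9 libraries. A feature was tested where the higher library had at least 10 TPM, and called where the ratio passed 2-fold on both scales. Log2 ratios used a pseudocount of 1 TPM, which understates changes of low genes. Intervals are exact 95% Clopper-Pearson intervals. Samples were grouped by their labels. There was no replicate, hence no test.

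Genes named are those of the strain labels, the 15 largest increases and the 15 largest decreases among called genes with at least 100 TPM, the called, most abundant and extreme members of each list, and genes named in the paper. The members and gene lists were chosen with earlier results of these data known. Of 5323 features (5113 protein-coding, 171 tRNA, 32 pseudogenes, 7 without a type) 5316 matched a RefSeq locus tag. Promoters come from the RefSeq ASM294v3 assembly and annotation, whose chromosome and strand equalled those of the deposited table for every matched feature. Promoter windows of full length were found for 5112 genes. Alternatives were other scalings, fold thresholds, minimum levels, pseudocounts and promoter windows. The calling rule and the motif search were tested on simulated data. Calculations ran in Python 3.11.15 with scipy 1.17.1, pandas 2.3.3 and numpy 2.4.6, and plots came from matplotlib 3.10.9. Columns of per-sample values left unused numbered 0. Blots, chromatin immunoprecipitation and survival assays were not analysed here. One promoter sequence is not reported here.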

Additional observations from a re-analysis of the deposited data

Results flagged for a closer look

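Of 14 genes called under glucose starvation and in the opposite direction in another medium, 8 had at least 100 TPM in the higher library under glucose starvation and are given here. The differences between media were not tested, since each value rests on 1 library a side. All values are log2 ratios of TPM + 1, triple to double mutant.

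The cation ATPase gene cta3 was at 4.96 under glucose starvation and −1.30 in glucose rich medium, with 0.73 under nitrogen starvation. The RNA-binding protein gene mug24 was at 3.59 under glucose starvation, 1.11 in glucose rich medium and −1.64 under nitrogen starvation. The glucose transporter gene ght5 was at 1.08 under glucose starvation and −1.53 in glucose rich medium. These genes were higher in the triple mutant only in part of the media.

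In the other direction, SPAC11D3.01c of the Con-6 family was at −2.98 under glucose starvation, 1.91 in glucose rich medium and 1.92 under nitrogen starvation. The alcohol dehydrogenase gene adh8 was at −3.05 under glucose starvation and 2.47 in glucose rich medium, osr2, annotated as a potassium channel subunit, at −2.73 and 2.93, and the dehydrogenase gene SPAC2E1P3.01 at −2.49 and 1.34. The ribosomal protein gene rps2601 was at −1.70 under glucose starvation and 1.44 under nitrogen starvation.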

How the results depend on the processing

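No paired analysis was possible because the labels carry no replicate numbers, and no replicate could be left out because each group has 1 library. Counts of called genes depended on the scaling and on the threshold. The 252 genes called higher became 653 on rescaled values alone and 534 at a common upper quartile, and stayed within 1.5 times of 252 under the other scalings, minimum levels and the restriction to protein-coding genes. The 697 called lower became 1615 on deposited TPM alone, 1560 without the 10 most abundant features, 1872 as CPM without a length term, and 366 at a minimum of 50 TPM. At 1.5-fold 445 were higher and 1241 lower, and at 3-fold 127 and 263. The median log2 ratio of all features of −0.62 changed sign to 0.029 on rescaled values, and was −0.10 at a common upper quartile, −0.75 as CPM and −0.47 with a pseudocount of 10.

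The shares of promoters with CCAAT rose with the window, to 58.5% of genes called higher and 63.1% of those called lower in the 500 bp before the coding sequence, and to 84.3% and 87.0% in the 1000 bp before it. Over all tested genes the shares were 59.7% and 84.9%. With CCAATCA the shares of genes called higher and lower were 6.05% and 3.31%, against 2.37% of all. The core TGACGT, added after the data were seen, was in 32.7% and 13.3% of their promoters in the 1000 bp before the coding sequence, against 14.9% of all.

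Genes called higher both here and in glucose rich medium numbered 137 at 1.5-fold and 27 at 3-fold, and those called lower 94 and 12. With nitrogen starvation 122 higher genes were shared on rescaled values alone, 152 at 1.5-fold and 18 at 3-fold, and 120 lower genes were shared on deposited TPM alone, 215 at 1.5-fold and 22 at 3-fold. For called genes of the lists and among the largest differences, direction cannot change on rescaled values or with another pseudocount, because the calling rule fixes it. Their sizes did change. Counted once for each gene and setting, 268 log2 ratios moved by more than their counting error and 163 did not. The rescaling among these settings shifts log2 ratios by about 0.67, so this tally is no measure for single genes. Depth limited single genes little, and the lack of replicates limits every value.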
